A study of Mus musculus with 4 samples.

Results

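Aerocytes are the capillary endothelial cells (ECs) of the alveolus that lie along the gas-exchange surface. They are thin, widely spread cells, marked by the endothelin receptor Ednrb, the carbonic anhydrase Car4 and high levels of the VEGF receptor Kdr, and they share each capillary net with the general capillary cells, which carry Kit and serve as progenitors. Endothelin is a peptide that ECs release, and its receptor Ednrb is known in ECs for clearing it and for driving the release of vasodilators. In the lung nuclei of 4 mice, 556 aerocyte nuclei were found among 7491 EC nuclei and 134745 barcodes with 1500 or more unique molecular identifiers (UMIs, each standing for a captured transcript).

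The nuclei were chosen by their own UMI counts. A barcode needed at least 1500 UMIs, at most 1 UMI of the leukocyte gene Ptprc, and 5 or more UMIs from at least 3 of 8 EC genes (Pecam1, Cdh5, Tek, Ptprb, Shank3, Calcrl, Flt1 and Egfl7). It further needed 3 or more UMIs from at least 2 of Ednrb, Tbx2, Rgs6, Tmeff2, Egflam and Shisa9, and fewer UMIs from the general capillary genes Kit, Npr3, Glp1r, Slc24a3, Chrm2 and Adgrl3 together. General capillary nuclei, used only for comparison, were chosen by the same rule with both lists exchanged, which gave 2473 nuclei. The levels of these 20 genes in aerocyte nuclei are therefore a description of the choice. No test of a single gene of them between genotypes is reported. Counts over all genes tested include them, with 1 general capillary gene of the rule among those called lower.

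Lungs of 2 wild-type (WT) and 2 VEcad-TRF2DN-Tg (Tg) mice, of strain C57/BL6J and 8 to 9 weeks old, were profiled by single-nucleus RNA-Seq. The Tg mice carry a dominant-negative form of the telomere-binding protein TRF2, driven by the VE-cadherin promoter, so that the transgene is expected in ECs of all kinds and not in aerocytes alone. Per the study's methods, the mice were male and both genotypes had been kept in chronic hypoxia, at 10% oxygen for 3 weeks, and no lung at normal oxygen is analysed here. Each mouse gave 1 library, and nuclei of 1 mouse are not replicates, so that values were summed per mouse and genotypes were compared over 2 mice each.

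The libraries held 125261739 to 182014706 UMIs in all barcodes. The aerocyte nuclei numbered 92 and 47 in WT mice 1 and 2 and 195 and 222 in Tg mice 1 and 2, with 379221, 180865, 684351 and 920645 UMIs in the same order. Their median depth per nucleus, again in this order, was 3588.5, 3537, 2768 and 3453 UMIs. No aerocyte barcode was shared between libraries. A level is given below in CPM, the UMIs of a gene per 1000000 UMIs of all genes, summed over the nuclei of a mouse, and 4 values in a row stand for WT mice 1 and 2 and Tg mice 1 and 2. Free RNA was found in the droplets of all libraries. Barcodes with 100 or fewer UMIs, taken as droplets without a nucleus, held 21715, 23757, 132885 and 51021 CPM from 8 secreted-protein genes of lung epithelium. Aerocyte nuclei held 8752, 8885, 44818 and 20063 CPM from the same 8 genes, which by proportion puts 33.7% to 40.3% of their UMIs down to free RNA. Both Tg mice stood above both WT mice in this RNA, Tg mouse 1 by the most. Results between genotypes are in part given beside the values of the droplets without a nucleus. UMIs come from the 3′ ends and from introns, and levels of different genes are not compared.

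Rgs6, a regulator of G protein signaling, supplied most of the aerocyte UMIs of the rule. Its level was 2078, 2389, 1384 and 1500 CPM in aerocyte nuclei and 49.4, 36.3, 32.9 and 46.3 CPM in general capillary nuclei. At least 1 Rgs6 UMI was present in 91.3%, 97.9%, 90.3% and 91.0% of the aerocyte nuclei, and Rgs6 alone gave most of the 6-gene UMIs in 67.4%, 61.7%, 51.8% and 57.7%. The name of the group thus rests on Rgs6 more than on Ednrb, and a nucleus could enter without any Ednrb UMI.

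Ednrb had 103, 138, 107 and 147 CPM in aerocyte nuclei, 1.44, 7.14, 9.74 and 8.81 CPM in general capillary nuclei and 2.66, 25.5, 10.6 and 7.86 CPM in the droplets without a nucleus. An Ednrb UMI was present in 28.3% (95% exact interval 19.4 to 38.6%), 34.0% (20.9 to 49.3%), 27.2% (21.1 to 34.0%) and 40.5% (34.0 to 47.3%) of the aerocyte nuclei. All 4 shares lay above those in general capillary nuclei, at 0.584%, 3.61%, 3.38% and 3.63%, and in alveolar type 2 (AT2) nuclei, an epithelial type not expected to carry this receptor, at 0.651%, 5.70%, 1.36% and 2.27%. Ednrb is 1 of the 6 genes that admitted a nucleus, so that the rule favoured this order and the shares are a description. The median depth of the AT2 nuclei was 2292.5, 2130, 2570 and 2765 UMIs, below that of the aerocyte nuclei. Intervals here and below cover counting error only.

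Tbx2, a T-box transcription factor of lung development, had 277, 354, 308 and 209 CPM in aerocyte nuclei against 38.4, 39.6, 43.5 and 39.9 CPM in general capillary nuclei. The membrane protein Tmeff2 had 335, 636, 399 and 461 CPM, the matrix protein Egflam 351, 299, 210 and 255 CPM, and the receptor-associated protein Shisa9 129, 55.3, 51.1 and 64.1 CPM. Members differed in how much of the rule they met: the median number of UMIs from the 6 genes was 9.5, 10, 8 and 10, with up to 78 in 1 nucleus, and 4 or more of the 6 genes were present in 33.7%, 42.6%, 26.7% and 37.4% of the nuclei.

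At the threshold on genes, 28, 14, 69 and 75 of the aerocyte nuclei had exactly 2 of the 6 genes. Few members lay at the threshold on UMIs. Exactly 3 UMIs from the 6 genes were found in 7, 2, 18 and 14 of the aerocyte nuclei, and Car4, Kdr and Chst1 together stood at 251, 539, 185 and 468 CPM in these. Just outside the rule were 5, 4, 24 and 16 nuclei with 2 UMIs from 2 genes, in which the same 3 markers stood at 0, 70.8, 366 and 371 CPM. A further 11, 10, 26 and 26 nuclei had 3 or more UMIs from 1 gene only, with the same markers at 586, 343, 445 and 362 CPM. In 2, 5, 12 and 12 nuclei the UMIs of both lists were equal in number, and the markers stood at 992, 381, 158 and 432 CPM. The group with 2 UMIs was above the members with exactly 3 UMIs in Tg mouse 1 alone. The group with 1 gene was above them in WT mouse 1 and Tg mouse 1, and that with equal UMIs in WT mouse 1 alone. Nuclei that met both lists with more general capillary UMIs numbered 25, 17, 55 and 66.

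The label was then checked on markers that the rule did not use. Of 17 further aerocyte markers, taken with no filter on their level, 13 had a higher CPM in aerocyte than in general capillary nuclei in every mouse, beside 1189 of all 32285 genes, which is 3.68%. Rprml, Ackr2 and Cdkn2b, with 21 UMIs or fewer in the aerocyte nuclei of each mouse, kept no order. Nckap5 was lower in every mouse, at 1909, 1664, 1398 and 1792 CPM in aerocyte nuclei and 3405, 3461, 2240 and 2820 CPM in general capillary nuclei. The comparison of both classes is a description, since the rule set the classes apart by measured RNA.

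Car4, a carbonic anhydrase at the luminal membrane that interconverts carbon dioxide and bicarbonate, had 208, 260, 212 and 200 CPM in aerocyte nuclei and 37.9, 77.2, 50.8 and 81.3 CPM in general capillary nuclei. In the droplets without a nucleus Car4 stood at 65.7, 184, 65.2 and 133 CPM. Its level in general capillary nuclei was below that of these droplets in every mouse, whereas that in aerocyte nuclei was above it. Kdr, the main signaling receptor for VEGF-A, had 264, 343, 266 and 315 CPM against 77.7, 92.1, 92.5 and 102 CPM, a mean log2 ratio of 1.70. A Kdr UMI was present in 52.2%, 66.0%, 54.9% and 62.2% of the aerocyte nuclei, in 22.6%, 32.8%, 27.2% and 32.4% of the general capillary nuclei and in 13.1%, 19.2%, 15.4% and 24.99% of the AT2 nuclei. Chst1, a sulfotransferase of keratan sulfate, was found in aerocyte nuclei at 81.7, 99.5, 24.8 and 34.8 CPM and in general capillary nuclei at 4.32, 5.19, 2.13 and 2.75 CPM.

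Kitl, the ligand of the Kit receptor, had 1382, 1371, 865 and 945 CPM in aerocyte nuclei and 331, 254, 259 and 288 CPM in general capillary nuclei, and Kit, whose low level was set by the rule, had 26.4, 22.1, 23.4 and 21.7 CPM against 203, 173, 169 and 189 CPM. Prx, which encodes periaxin, a scaffold protein of the cell cortex, had 264, 326, 324 and 328 CPM against 63.8, 109, 107 and 93.6 CPM, and the T-box factor Tbx3 had 319, 326, 266 and 263 CPM against 54.2, 66.2, 69.4 and 82.1 CPM. The tetraspan protein Emp2 had 256, 343, 428 and 366 CPM against 106, 147, 236 and 200 CPM, near the droplets without a nucleus in the second class. For Apln, the apelin ligand, only 6, 8, 13 and 14 UMIs were counted in aerocyte nuclei, which is 15.8, 44.2, 19.0 and 15.2 CPM against 3.36, 3.24, 4.26 and 4.13 CPM in general capillary nuclei. Its receptor Aplnr had 1, 0, 5 and 5 UMIs in aerocyte nuclei, and a count of that size does not show whether the gene was expressed.

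**Figure D1:**
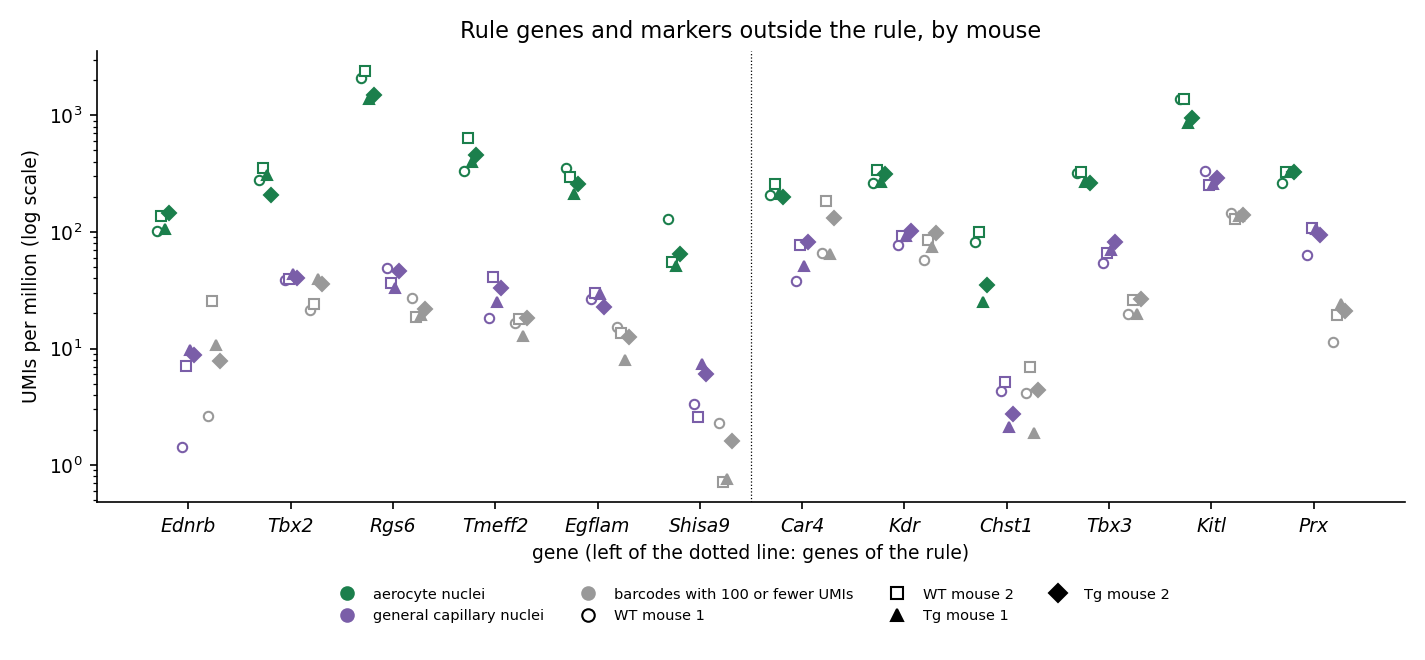
CPM (log scale) of genes of the rule, left of the dotted line, and of markers outside it, right of the line, in each of the 4 mice, with 1 marker shape per mouse, filled for Tg. Aerocyte nuclei (green) stood above general capillary nuclei (purple) for Ednrb, Tbx2, Rgs6, Car4, Kdr and Chst1 in every mouse, and the grey points give the droplets without a nucleus. The rule favoured this order for Ednrb, Tbx2 and Rgs6.

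Summed general capillary, venous and arterial markers were lower in aerocyte than in general capillary nuclei, and summed lymphatic markers kept no order. A gene was counted as measured with at least 10 UMIs in every mouse in 1 of both classes, and levels under 3 UMIs were set to 3 UMIs, so that a gene can enter through the class where it is high and such counts are a description. Of the 5 general capillary markers outside the rule that were measured, 3 were lower in every mouse, among them Plcb1, a phospholipase C, at 353, 415, 468 and 547 CPM against 2028, 1800, 1328 and 1769 CPM. The summed venous markers had 224, 144, 259 and 207 CPM in aerocyte nuclei and 397, 261, 336 and 263 CPM in general capillary nuclei, with 1 to 2 of 6 genes at 0 in aerocyte nuclei. The summed arterial markers had 2489, 2427, 1853 and 2255 CPM against 3375, 3155, 2482 and 3130 CPM, and the lymphatic markers 44.8, 138, 129 and 100 CPM against 158, 135, 109 and 99.4 CPM. In aerocyte nuclei of WT mouse 2, 5 of 10 arterial genes were at 0. Of 5 markers measured in each list, 3 arterial, 2 venous and 1 lymphatic were lower in every mouse. Such counts, here and below, are to be read beside 1467 lower and 1210 higher of all 10910 genes measured. The 1 lymphatic gene of 5 does not set that list apart.

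Markers of alveolar and club cells and of macrophages in aerocyte nuclei were below their level in the droplets without a nucleus. The markers of alveolar type 1 (AT1) cells, the epithelium that faces the aerocyte, summed to 514, 757, 999 and 953 CPM against 1097, 1352, 1250 and 1162 CPM in these droplets. The AT2 markers had 2996, 3920, 8428 and 7682 CPM against 6992, 9164, 19702 and 17270 CPM, and the club cell markers 8119, 7613, 38242 and 14855 CPM against 20025, 19536, 115653 and 37742 CPM. Ciliated cell markers had 427, 304, 373 and 429 CPM against 981, 421, 597 and 380 CPM, above the droplets in Tg mouse 2. Macrophage markers had 1305, 3417, 1295 and 2872 CPM against 2602, 5852, 2546 and 4976 CPM. Since free RNA was put at 33.7% to 40.3% of aerocyte UMIs, it alone would give about that part of the droplet level. AT1, AT2 and macrophage markers exceeded that part in every mouse. Whether aerocyte nuclei held RNA of these cells beyond free RNA was not tested. Pericyte markers were above these droplets in 3 mice, at 127, 38.7, 101 and 174 CPM in aerocyte nuclei against 57.4, 45.4, 50.4 and 69.1 CPM, with 0 to 1 of 6 genes at 0. Smooth muscle markers had 29.0, 0, 38.0 and 9.78 CPM, against 9.12, 7.45, 26.6 and 18.7 CPM, and all 6 were at 0 in WT mouse 2. Lymphocyte markers had 419, 464, 324 and 370 CPM against 395, 724, 151 and 324 CPM.

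Against general capillary nuclei, 58 of 4000 genes with at least 10 aerocyte UMIs in every mouse were 2-fold or more higher in aerocyte nuclei in every mouse, which is 1.45%, and 23 of 10887 genes with at least 10 general capillary UMIs were 2-fold or more lower, which is 0.211%. The genes of the rule were left out of these counts, and both shares are themselves the background of the choice, so that nothing further is read from them. At 4-fold or more, 11 genes were higher and 0 lower. After free RNA had been subtracted, 100 genes were 2-fold or more higher and 51 lower. The 12 genes with the largest ratio in the mouse where it was smallest were Tbx3os1, 2610203C22Rik, Chst1, Edil3, Dpysl5, Ncam1, Prickle2, Gnao1, Lmntd1, D630045J12Rik, Aff3 and Dach1.

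Of these 12, Prickle2, a planar cell polarity protein, had 7526, 5966, 3438 and 3990 CPM in aerocyte nuclei and 1178, 869, 695 and 709 CPM in general capillary nuclei, a mean log2 ratio of 2.56. Edil3, a secreted integrin ligand, had 641, 818, 437 and 425 CPM against 72.4, 66.2, 46.6 and 53.4 CPM (mean log2 ratio 3.25), and the neural cell adhesion molecule Ncam1 had 174, 166, 113 and 108 CPM against 22.5, 26.6, 18.6 and 14.3 CPM. For these 3 genes the droplets without a nucleus held less than either class in every mouse. Among nuclear factors, Dach1, a transcription cofactor known from coronary ECs, had 2803, 2615, 1299 and 1716 CPM against 653, 415, 349 and 434 CPM, and Aff3 had 1685, 2366, 1404 and 1693 CPM against 305, 577, 311 and 361 CPM.

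Also among the 12, Gnao1, the G protein subunit alpha o, had 214, 254, 149 and 209 CPM against 24.5, 40.2, 32.6 and 27.0 CPM, and Dpysl5, of the collapsin response mediator family, had 47.5, 60.8, 45.3 and 47.8 CPM against 1.92, 3.89, 5.78 and 3.86 CPM. Tbx3os1 lies antisense to the Tbx3 region on chromosome 5 (119570130 to 119671365, minus strand, build mm10), at 314, 387, 313 and 291 CPM against 17.3, 12.3, 18.9 and 18.2 CPM. Whether the counting kept reads of an antisense gene apart from those of its partner is not stated in the sources used here and was not tested. Further genes at least 2-fold higher in every mouse, named after their values had been seen, included the mechanosensitive channel Piezo2 (1076, 885, 704 and 765 CPM against 336, 323, 299 and 289 CPM) and the insulin receptor substrate Irs1.

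Among the 23 lower genes, Bmp6, a ligand of the bone morphogenetic protein pathway, had 84.4, 55.3, 61.4 and 58.7 CPM in aerocyte nuclei and 300, 354, 305 and 363 CPM in general capillary nuclei, a mean log2 ratio of −2.36. The integrin subunit Itga6, which binds laminin, had 68.6, 77.4, 80.4 and 86.9 CPM against 360, 333, 248 and 263 CPM, and the hyaluronidase Cemip2 had 121, 60.8, 159 and 148 CPM against 560, 640, 508 and 519 CPM. Abcb1a, a drug efflux pump of the luminal membrane, had 13.2, 5.53, 30.7 and 30.4 CPM against 79.2, 76.6, 90.1 and 84.6 CPM. The levels of Itga6 in aerocyte nuclei were below those of the droplets without a nucleus, at 111 and 94.7 CPM, among WT lungs and above them in both Tg mice. The others of the 12 named were Tmem44, Plcb1, Mcf2l, Nxpe4, Gask1b, Fat4, Palmd and Acer2, with mean log2 ratios of −1.98 to −1.51.

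**Figure D2:**
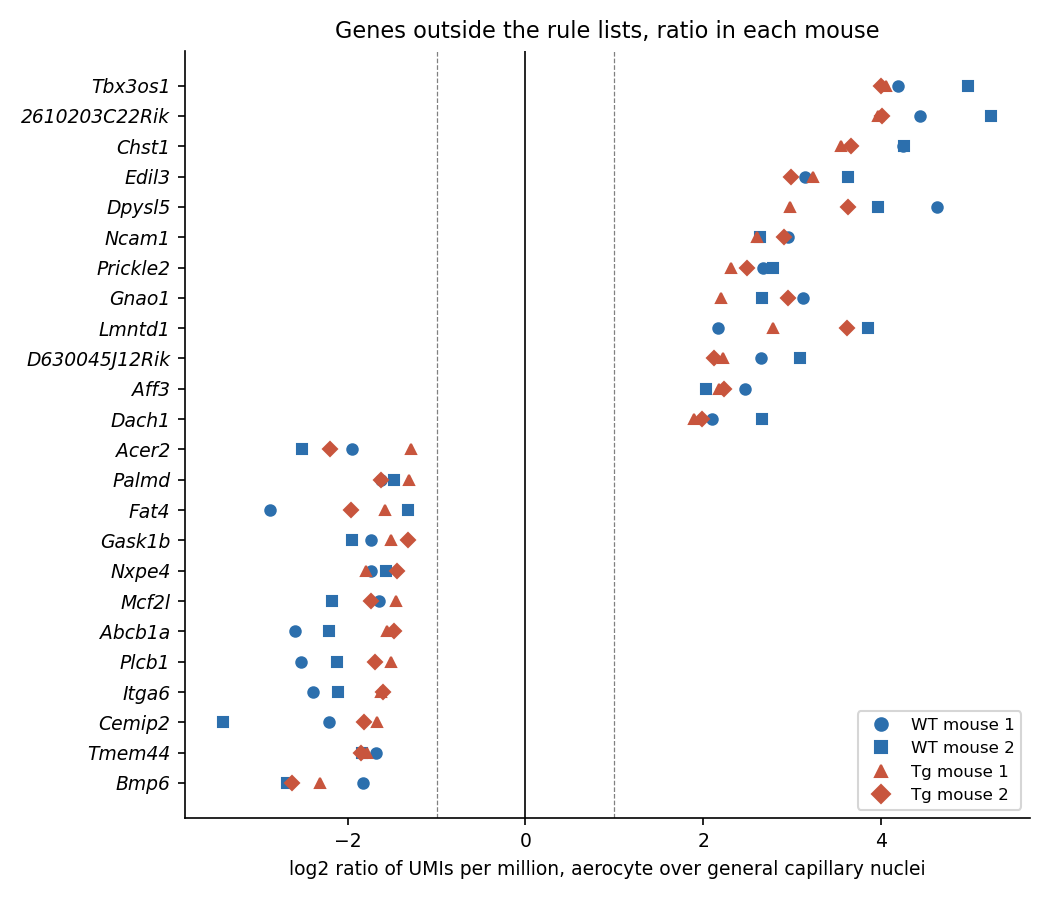
log2 ratio of CPM in aerocyte over general capillary nuclei for the 12 genes highest and the 12 lowest in aerocyte nuclei, with 1 point per mouse, WT and Tg in different colours. Points of the 4 mice lie on 1 side of 0 for every gene, as the choice required, and Tbx3os1, 2610203C22Rik, Chst1 and Dpysl5 reach the highest ratios.

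The VEGF and angiopoietin genes were divided between both classes. Of 11 measured, 2 were higher in aerocyte nuclei in every mouse and 6 were lower, with a median mean log2 ratio of −0.29 beside −0.02 over all genes measured. Besides Kdr, the coreceptor Nrp1 was higher, at 1268, 1117, 940 and 1114 CPM against 601, 618, 450 and 621 CPM. The ligand Vegfc was lower, at 63.3, 27.6, 86.2 and 121 CPM against 360, 292, 254 and 241 CPM. Tek, the angiopoietin receptor, was also lower, at 71.2, 88.5, 118 and 83.6 CPM against 366, 334, 340 and 354 CPM, and it is a gene of the EC list that both classes had to meet alike, as is Flt1, another of the 6.

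Basement membrane and integrin genes were more often lower in aerocyte nuclei. Of 21 measured, 12 were lower and 2 higher in every mouse, beside 1467 lower and 1210 higher of all 10910 genes. The collagen receptor subunit Itga1 had 295, 194, 278 and 292 CPM against 700, 812, 639 and 624 CPM. Among genes of vessel tone, 6 of 14 were lower and 2 higher in every mouse: the cyclic nucleotide phosphodiesterase Pde3a had 280, 254, 245 and 300 CPM against 846, 710, 585 and 526 CPM, and the cGMP-dependent kinase Prkg1 had 1210, 1117, 913 and 1012 CPM against 657, 927, 555 and 598 CPM. Nos3, the endothelial nitric oxide synthase, had 5.27, 0, 21.9 and 8.69 CPM in aerocyte nuclei against 30.7, 22.7, 32.0 and 16.8 CPM.

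Of 15 BMP and TGF-β genes, 2 were higher (the inhibitory Smad6, at 211, 282, 171 and 204 CPM against 128, 182, 111 and 125 CPM, and the coreceptor Tgfbr3) and 1, Bmp6, was lower in every mouse. Bmpr2, the receptor mutated in heritable pulmonary hypertension, had 960, 879, 561 and 743 CPM against 889, 781, 584 and 673 CPM, and the classes did not keep 1 order over the mice. Junction genes numbered 4 higher and 3 lower of 15, with the EC rule gene Pecam1 among the higher, and T-box and EC transcription factors 3 higher and 3 lower of 16, where 1 of the 3 higher, Tbx2, is a gene of the rule. In the endothelin system, the ligand Edn1 had 10.5, 0, 13.2 and 7.60 CPM in aerocyte nuclei and the converting enzyme Ece1 had 100, 60.8, 90.6 and 130 CPM, the latter near its level of 103, 119, 129 and 120 CPM in general capillary nuclei.

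Aerocyte nuclei made up 6.16% (95% exact interval 5.00 to 7.50%) and 4.88% (3.60 to 6.43%) of the EC nuclei of WT mice 1 and 2 and 7.64% (6.63 to 8.73%) and 8.95% (7.86 to 10.1%) of those of Tg mice 1 and 2. Both Tg mice were thus above both WT mice, by 2.77 percentage points between the means (5.52% ± 0.91 against 8.29% ± 0.93, SD, n = 2). The exact permutation test, two-sided over the mice, gave p = 0.33, which is the smallest p that 2 mice against 2 can give. Of the capillary nuclei of both classes, aerocyte nuclei made up 15.2%, 13.4%, 19.1% and 21.2%, with both Tg mice again on top. Of all barcodes with 1500 or more UMIs and at most 1 Ptprc UMI, they made up 0.437%, 0.223%, 0.963% and 0.796%, a log2 ratio of the means of 1.42 beside 0.59 over EC nuclei (exact permutation p = 0.33).

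The order of the shares held in most settings and depended on depth in 1 of them. With at least 3000 UMIs per nucleus, the shares were 10.3%, 6.92%, 8.69% and 11.1%, and WT mouse 1 stood above Tg mouse 1 (exact permutation p = 0.67). With every nucleus thinned to 1500 UMIs, they were 4.25%, 4.42%, 4.89% and 6.58%. After barcodes with the highest doublet scores had been dropped, they were 5.08% and 4.37% against 7.64% and 8.47%, although this step dropped 45.7%, 51.1%, 33.3% and 48.6% of the aerocyte nuclei. It also dropped 46.5%, 59.0%, 44.3% and 57.0% of the general capillary nuclei and 34.1%, 45.4%, 33.4% and 45.7% of all EC nuclei. The share of nuclei of a type among the nuclei captured also reflects how well nuclei of the other types were recovered, which cannot be told apart here.

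**Figure D3:**
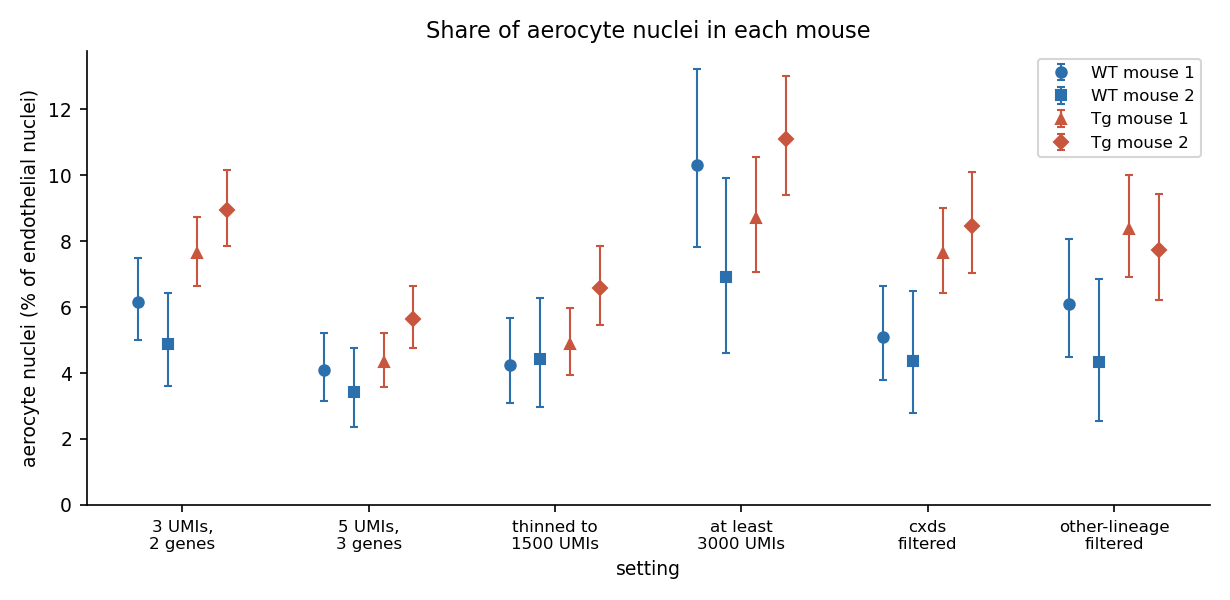
Aerocyte nuclei in percent of all EC nuclei, with 1 point per mouse and 95% exact intervals of the nuclei counted, for the main rule and for other settings of the choice. Both Tg mice lie above both WT mice in all but the setting with at least 3000 UMIs.

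Between genotypes, edgeR's quasi-likelihood test on the UMIs summed over aerocyte nuclei called 366 of 8257 genes higher in the Tg mice, which is 4.43%, and 65 lower, which is 0.787%, at a Benjamini-Hochberg adjusted p under 0.05. These changes went with free RNA. Of the 366 higher genes, 365, all but Col4a3, were also higher in the Tg mice in the droplets without a nucleus, and all 65 lower genes were also lower there. The median log2 change in these droplets was 1.86 for the higher genes and −1.13 for the lower ones, beside −0.31 for all genes tested. Across the genes tested, the change in aerocyte nuclei and that in droplets without a nucleus had a Pearson correlation of 0.78, given as a description, since genes are not replicates and both values share libraries.

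Few of the higher genes stood above the droplets without a nucleus in every mouse. Their level in aerocyte nuclei was above that of the droplets without a nucleus in all 4 mice for 10 of 366 genes, which is 2.73%, and for 36 of 65 lower genes, which is 55.4%, beside 23.3% of all genes tested. When the estimated free RNA was subtracted from each sum, 2 genes remained called, Wdr17 and Lyz2, with 728 of 5903 genes tested at an unadjusted p under 0.05. Only 288 of the 431 called genes could be tested after subtraction, and 283 of these kept their direction. Without Tg mouse 2, edgeR called 0 genes, with 1057 at an unadjusted p under 0.05, whereas without WT mouse 2 it called 971. In these fits the lone mouse of a genotype is assumed to vary like the 2 mice of the other. DESeq2 called 170 genes. The part of free RNA in single calls was not tested beyond these values.

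Both genes that remained called after subtraction were looked at after their values had been seen. Wdr17, a WD-repeat protein, had 42.2, 71.9, 976 and 834 CPM in aerocyte nuclei and 54.2, 67.5, 943 and 553 CPM in general capillary nuclei (log2 change 4.15 in aerocyte nuclei). It also had 65.3, 73.3, 621 and 514 CPM in the droplets without a nucleus, so that its difference was not particular to aerocytes. Lyz2, the lysozyme of macrophages and AT2 cells, had 140, 348, 1298 and 1188 CPM in aerocyte nuclei against 199, 709, 2481 and 1845 CPM in the droplets without a nucleus. The adjusted p after subtraction was 0.0232 for Wdr17 and 0.0277 for Lyz2 from edgeR. The fit without Tg mouse 2 cannot set these genes apart from others.

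**Figure D4:**
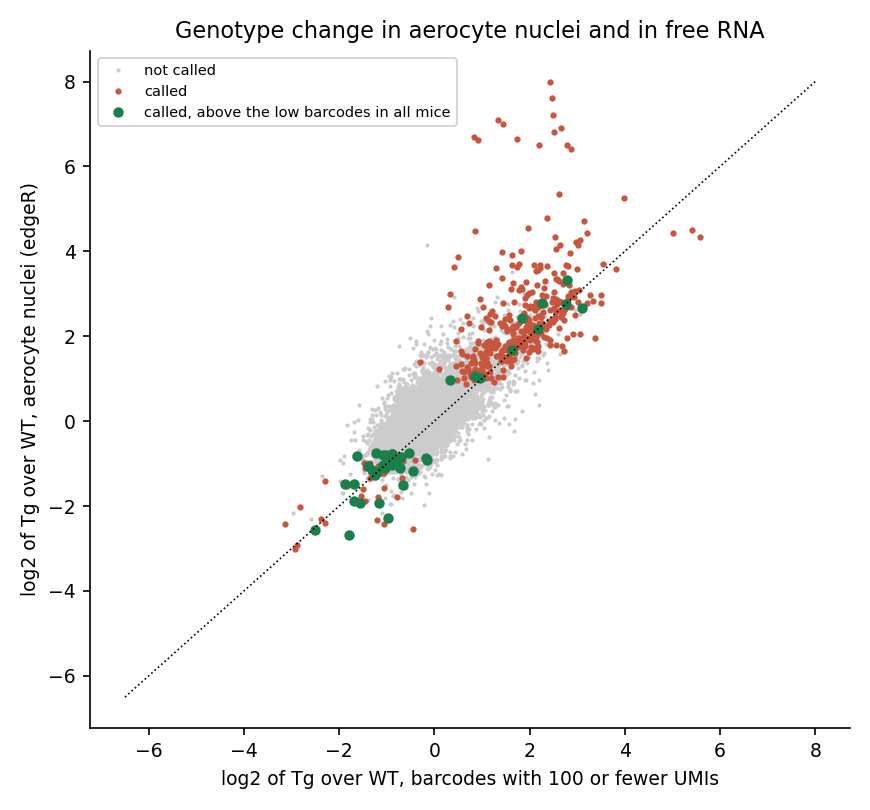
log2 change of Tg over WT in aerocyte nuclei (vertical axis, edgeR) against that in barcodes with 100 or fewer UMIs (horizontal axis), with 1 point per gene tested and the dotted line at equal change. Of the 431 called genes, all but Col4a3 lie in the upper right and lower left, and those above the level of these barcodes in all 4 mice are drawn in green.

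The genes described next were above the droplets without a nucleus in all 4 mice and did not overlap between genotypes, and from these the 10 largest rises and the 10 largest falls were taken. All 431 called genes were free of overlap between genotypes, beside 51.7% of the genes tested. Each of the 20 changed in the same direction in the droplets without a nucleus, and none remained called after subtraction (17 of 20 could be tested, all 17 in the same direction, adjusted p 0.0898 to 0.382). The median log2 change was 2.29 for the 10 rises and 1.93 for the 9 of them tested after subtraction, and −1.90 for the 10 falls and −1.73 for the 8 of them tested after it. DESeq2 called 6 of the 20. The fit without Tg mouse 2, described above, cannot set the 20 apart from other genes.

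Ramp2, the protein that joins the receptor Calcrl to form the adrenomedullin receptor of ECs, rose from 29.0 and 44.2 CPM in WT to 139 and 76.0 CPM in Tg mice (log2 change 1.68 ± 0.43 SE, edgeR adjusted p = 0.043). In the droplets without a nucleus it had 15.96, 22.6, 85.3 and 38.4 CPM, and in general capillary nuclei 17.8, 23.4, 97.4 and 58.4 CPM. Calcrl itself, a gene of the rule, had 2592, 1504, 1265 and 1663 CPM. Syne2, a nesprin of the nuclear envelope, rose from 264 and 348 to 510 and 632 CPM (log2 change 0.98 ± 0.22 SE, edgeR adjusted p = 0.022), and Sulf1, a sulfatase of heparan sulfate, rose from 190 and 276 to 338 and 570 CPM (log2 change 1.05 ± 0.27 SE, edgeR adjusted p = 0.041). The rise of Sulf1 was lost, with a log2 change of −0.15 (edgeR adjusted p = 0.92), when nuclei with markers of 5 other-lineage lists were left out, a setting chosen after seeing the data.

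The other 7 rises were mostly of noncoding or little-known genes. Gm15261, annotated as antisense on the X chromosome (169037674 to 169106536, minus strand, mm10), had 26.4, 44.2, 289 and 142 CPM, a log2 change of 2.77. Gm20616, Pard3bos1 and Gm47167, also antisense, rose by log2 changes of 3.32, 2.78 and 2.16, and Gm46367, Lysmd4 and Gm37240 by 2.67, 2.42 and 1.02. Gm20616 and Pard3bos1 had only 1 UMI in 1 or both WT mice, so that the size of their change is uncertain. The strand limit given for Tbx3os1 holds for these antisense genes as well.

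Chst1 was the only 1 of the 20 among the 58 genes at least 2-fold higher in aerocyte than in general capillary nuclei. Its level fell from 81.7 and 99.5 CPM in WT to 24.8 and 34.8 CPM in Tg mice, on 31, 18, 17 and 32 UMIs (log2 change −1.50 ± 0.35 SE, edgeR adjusted p = 0.025). A Chst1 UMI was present in 27.2% (95% exact interval 18.4 to 37.4%) and 29.8% (17.3 to 44.9%) of the aerocyte nuclei of WT mice 1 and 2 and in 8.21% (4.76 to 12.98%) and 12.2% (8.17 to 17.2%) of those of Tg mice 1 and 2. In the droplets without a nucleus Chst1 stood at 4.18, 6.97, 1.90 and 4.39 CPM. The gene lies on chromosome 2 at 92599707 to 92615250 on the plus strand (mm10).

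Among the other falls, Camk1d, a calcium and calmodulin-dependent kinase, had 3317, 1681, 453 and 360 CPM in aerocyte nuclei and 2993, 1319, 407 and 352 CPM in the droplets without a nucleus (log2 change −2.58 ± 0.32 SE, edgeR adjusted p = 0.000475). Taco1, a translational activator of cytochrome c oxidase in mitochondria, had 282, 299, 65.8 and 79.3 CPM against 110, 85.3, 27.3 and 37.4 CPM in these droplets, and 370, 221, 77.0 and 82.1 CPM in general capillary nuclei. Hs6st3, a sulfotransferase of heparan sulfate, had 398, 194, 99.4 and 115 CPM. Itgb8, an integrin subunit that activates TGF-β, fell by 2.67 on the log2 scale but had only 13, 4, 3 and 4 UMIs. Plcxd3, Prr16, Cyp7b1, Gm43111 and Spata5 fell by log2 changes of 1.26 to 2.29. For Plcxd3 (103, 22.1, 20.5 and 8.69 CPM) and Cyp7b1 (153, 33.2, 29.2 and 26.1 CPM), WT mouse 1 stood far above the other 3 mice, and the fall rested mostly on it.

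**Figure D5:**
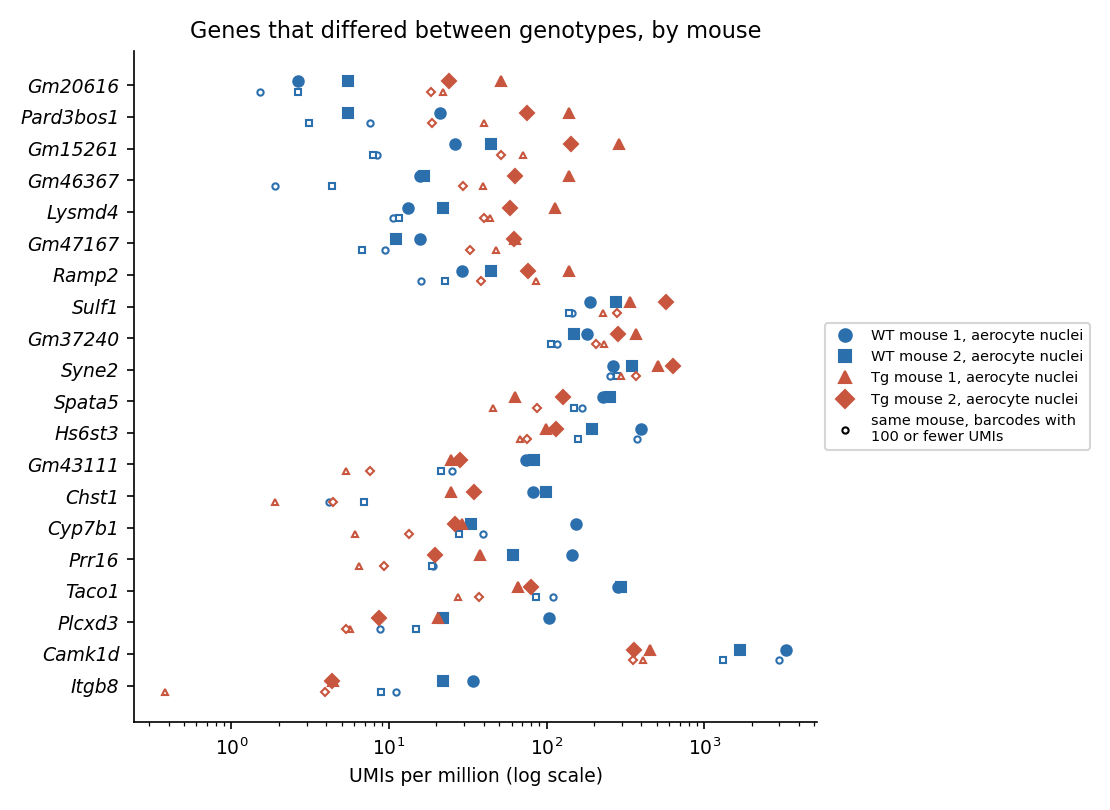
CPM (log scale) in aerocyte nuclei of each mouse for the 20 named genes that differed between genotypes, with small open points for the barcodes with 100 or fewer UMIs of the same mouse. WT and Tg mice do not overlap for any of the 20 genes, and the open points move in the same direction.

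The genes that set aerocytes apart from general capillary nuclei were also compared between genotypes. Of the 58 genes at least 2-fold higher in aerocyte nuclei, 49 had a log2 change below 0, which is 84.5%, beside 50.3% of all genes tested. The 58 needed at least 10 aerocyte UMIs in every mouse, and WT mouse 2 had the fewest, 180865 over all genes. A gene higher in WT mice could thus enter more easily, and all genes tested had passed another filter. The share below 0, also that of the 12 named genes, is therefore a description. The median log2 change of the 58 was −0.40. Beside 5.22% of all genes tested, 2 of the 58 were called, a count that does not set them apart: Chst1 and 2610203C22Rik. The latter, a noncoding gene on chromosome 1, had 290, 343, 152 and 168 CPM (log2 change −0.91, edgeR adjusted p = 0.028). Of the 12 named genes, 11 had a log2 change below 0, with a median of −0.52 in aerocyte nuclei, −0.58 in the droplets without a nucleus and −0.57 after subtraction. After barcodes with the highest doublet scores had been dropped, Aff3, Dpysl5, Tbx3os1 and D630045J12Rik had log2 changes above 0. Dach1 had a log2 change of −0.80 (edgeR adjusted p = 0.063), Prickle2 of −0.81 (adjusted p = 0.10) and Edil3 of −0.69 (adjusted p = 0.078), none past the threshold. Of the 23 genes lower in aerocyte nuclei, which were filtered on general capillary UMIs, 21 could be tested. The 21 had a median log2 change of 0.25, with 6 below 0 and 0 called by edgeR. For the 12 named among the 23, of which 11 were tested, the median was 0.10 in aerocyte nuclei. It was −0.31 in the droplets without a nucleus and 0.53 after subtraction. Whether the rule admitted nuclei with less aerocyte RNA in the Tg mice was not tested.

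Of 15 aerocyte markers outside the rule that could be tested, 2 were called between genotypes, beside 5.22% of all genes tested. Car4 had a log2 change of −0.11 ± 0.22 (SE, edgeR adjusted p = 0.84), Kdr of 0.02 ± 0.22 (adjusted p = 0.98), Tbx3 of −0.23 ± 0.21 (adjusted p = 0.58) and Prx of 0.22 ± 0.21 (adjusted p = 0.60). A p above the threshold does not show that these levels were equal. Of the 15, edgeR called 1 higher, Clu, and 1 lower, Chst1, and DESeq2 called 0. In edgeR 6 had an unadjusted p under 0.05, beside 20.9% of all genes tested. Clu, the secreted chaperone clusterin, had 29.0, 71.9, 134 and 114 CPM in aerocyte nuclei, below its 51.3, 81.2, 217 and 182 CPM in the droplets without a nucleus.

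CDK inhibitors, whose rise marks senescence, were close to the limit of detection. Cdkn1a, which encodes p21, had 7, 8, 27 and 45 UMIs in aerocyte nuclei, or 18.5, 44.2, 39.5 and 48.9 CPM, and its levels overlapped between genotypes (log2 change 0.73 ± 0.46 SE, edgeR adjusted p = 0.40). It was below the droplets without a nucleus in every mouse, where it had 49.8, 69.7, 80.8 and 124 CPM. A Cdkn1a UMI was present in 6.52%, 14.9%, 12.8% and 17.6% of the aerocyte nuclei and in 7.60%, 10.97%, 10.6% and 19.6% of the AT2 nuclei. The aerocyte share was the higher in WT mouse 2 and Tg mouse 1 only. AT2 nuclei are not a measured background for this gene, and whether Cdkn1a exceeded free RNA was not tested. Of 2 CDK inhibitors tested, 0 were called by edgeR or DESeq2, and 0 had an unadjusted p under 0.05. Cdkn2a, which encodes p16 and p19, had 33.2 CPM in WT mouse 2 and at most 5.84 CPM in the other 3 mice.

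Terf2, the mouse gene of TRF2, had 50.1, 55.3, 45.3 and 44.5 CPM (log2 change −0.16, edgeR adjusted p = 0.85), and its counts do not tell the transgene from the endogenous gene. Counts of called genes in the lists are to be read beside all genes tested, of which 5.22% were called and 20.9% had an unadjusted p under 0.05, so that 0 calls in a list of this size do not set it apart. Of 4 shelterin and telomere genes tested, edgeR and DESeq2 called 0, with 0 at an unadjusted p under 0.05. Of 10 p53 target genes, 1 was called higher, Rps27l, at 18.5, 22.1, 81.8 and 79.3 CPM against 33.4, 51.4, 225 and 164 CPM in the droplets without a nucleus. Of 8 Notch genes, edgeR and DESeq2 called 0, with 1 at an unadjusted p under 0.05. The ligand Jag1 had 58.0, 27.6, 29.2 and 48.9 CPM, the receptor Notch1 89.7, 77.4, 57.0 and 68.4 CPM and the target Hes1 39.6, 66.3, 102 and 76.0 CPM.

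Genes of the rule, such as Tek or Tbx2, were left out of the following counts. edgeR and DESeq2 called 0 of 9 VEGF and angiopoietin genes (3 at an unadjusted p under 0.05), 0 of 14 BMP and TGF-β genes (2), 0 of 12 T-box and EC transcription factors (2), 0 of 8 hypoxia genes (1), 0 of 4 secreted factors of senescence (2) and 0 of 8 interferon genes (2). The BMP receptor Bmpr2 had a log2 change of −0.45 (edgeR adjusted p = 0.24). Junction genes gave 1 rise of 12, the tight junction protein Cldn5, at 34.3, 55.3, 129 and 108 CPM and above the droplets without a nucleus in 3 mice (log2 change 1.54, edgeR adjusted p = 0.019). Basement membrane genes gave 1 rise of 20, Col4a3, which AT1 cells make, at 50.1, 116, 177 and 202 CPM against 158, 187, 147 and 132 CPM in the droplets without a nucleus, which went the other way.

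Among 11 vessel tone genes, Ramp2 and the prostacyclin synthase Ptgis rose, the latter at 52.7, 44.2, 105 and 121 CPM against 60.0, 139, 103 and 111 CPM in the droplets without a nucleus. None of the rises of Cldn5, Col4a3, Ramp2 and Ptgis was called by DESeq2. Of 10 carbonic anhydrase and gas transport genes, 1 rose, the water channel Aqp1, at 50.1, 71.9, 251 and 199 CPM against 70.3, 130, 430 and 315 CPM in these droplets. Of the 8 epithelial genes used to measure free RNA, 5 were called higher, as were 3 of 6 club cell markers, 3 of 5 mesothelial markers, 2 of 8 AT1 markers, 1 of 8 AT2 markers and, with Aqp1, 1 of 4 general capillary markers outside the rule. Of 7 MHC class I genes, 1 was lower, H2-K1, at 625, 603, 221 and 381 CPM against 1636, 1284, 366 and 681 CPM. Of 6 immediate early and heat shock genes, 1 rose, the chaperone Hspa8, at 71.2, 160, 343 and 385 CPM against 173, 386, 827 and 843 CPM. After subtraction, edgeR called 0 genes of these lists.

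Whether a genotype change differed between aerocyte and general capillary nuclei was tested as an interaction of class and genotype in edgeR with a term for each mouse. In this test free RNA of a mouse enters both classes. It called 13 of 12220 genes, which is 0.106%, all with a higher log2 change in aerocyte nuclei, with 732 genes at an unadjusted p under 0.05. None of the 20 genes named for the genotype change was among the 13. Fbxl7, a subunit of ubiquitin ligases, was the only 1 of the 13 whose level in aerocyte nuclei was above the droplets without a nucleus in every mouse. It had 222, 210, 295 and 417 CPM in aerocyte nuclei and 572, 603, 473 and 581 CPM in general capillary nuclei. These droplets held 221, 191, 123 and 166 CPM, so that the WT levels in aerocyte nuclei were close to those of the droplets. The difference of the log2 changes of Fbxl7 was 0.89 ± 0.19 (SE, edgeR adjusted p = 0.020). After subtraction of free RNA the difference for Fbxl7 was 1.33 with an adjusted p of 0.19, and DESeq2 called 0 genes for this difference, with 97 at an unadjusted p under 0.05.

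Vegfc and Plcb1 were also among the 13. Vegfc, described above as lower in aerocyte than in general capillary nuclei, had a ratio nearer to 1 in the Tg mice (86.2 and 121 CPM against 254 and 241 CPM) than in the WT mice (63.3 and 27.6 CPM against 360 and 292 CPM), a difference of log2 changes of 1.51. Plcb1, given above as at least 2-fold lower in every mouse, had a difference of 0.78. The droplets without a nucleus held 52.8, 33.9, 26.6 and 32.4 CPM of Vegfc and 394, 386, 237 and 394 CPM of Plcb1, so that the level in aerocyte nuclei was below them in WT mouse 2 for Vegfc and in WT mouse 1 for Plcb1. Plcb1 is 1 of 6 general capillary markers outside the rule, which summed to 480, 647, 915 and 1084 CPM in aerocyte nuclei, 2222, 2153, 1927 and 2403 CPM in general capillary nuclei and 633, 897, 1036 and 1284 CPM in the droplets without a nucleus. In aerocyte nuclei and in these droplets, the sums of Tg and WT mice did not overlap, with Tg the higher, with 3 of 4 genes tested at an unadjusted p under 0.05 and a median log2 change of 1.12, or 2.06 after subtraction. The part of general capillary RNA in the calls of the difference was not tested.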

How the data were processed

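Nuclei of the lungs of 2 WT and 2 Tg mice were sequenced with the 10x Genomics 3′ assay, 1 library per mouse. The authors deposited, for each mouse, raw UMI counts of 32285 genes in every barcode, made with Cell Ranger 6.1.1 on build mm10 per the submitters' processing notes. These deposited counts are unfiltered, so that the authors' selection of nuclei and removal of doublets and free RNA are not part of them. Aerocyte and general capillary nuclei were chosen by the thresholds given above, and no doublet was removed in the main result. UMIs were summed per mouse and class. After a filter on low sums (filterByExpr of edgeR, minimum of 10) and TMM scaling, Tg was tested against WT by the quasi-likelihood method of edgeR, with p-values adjusted after Benjamini and Hochberg and a threshold of 0.05. Shares were compared with exact permutation tests over mice.

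The members and the gene lists were chosen with earlier results of these data known. Genes were named as members of the lists, besides Cdkn1a and Terf2. Genotype calls qualified if free of overlap, above the droplets without a nucleus in all 4 mice and in no list of another lineage. The 10 with the largest change each way were named. Also named were the 12 each way with the largest class ratio in the mouse where it was smallest. Interaction calls were named if above these droplets. In class ratios, a gene with under 3 UMIs in a mouse was set to 3 UMIs. Free RNA was taken as the profile of barcodes with 100 or fewer UMIs, scaled by 8 secreted-protein genes of epithelium, and subtracted in an alternative. Other alternatives were DESeq2, leaving out the low-sum filter, a block for the replicate number, a doublet score of the kind of cxds over 500 genes, at least 5 UMIs from 3 genes of the aerocyte list, at least 3000 UMIs, and each mouse left out. Gene positions are from GENCODE on mm10. Tools were Python 3.11.15, SciPy 1.17.1, NumPy 2.4.6, pandas 2.3.3, matplotlib 3.10.9, DESeq2 1.42.0, edgeR 4.0.16 and limma 3.58.1, the last 3 in R 4.3.3.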

Additional observations from a re-analysis of the deposited data

Results flagged for a closer look

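For 13 genes, the change between genotypes differed between aerocyte and general capillary nuclei in the interaction test (edgeR adjusted p under 0.05). All but Fbxl7 were chosen here after their values had been seen. The log2 change in aerocyte nuclei minus that in general capillary nuclei was 4.34 for Tafa2, 2.12 for Rcan2, 1.62 for Nrg1, 1.51 for Vegfc, 1.37 for Vwf, 1.35 for Fras1, 1.34 for Tmem108, 1.20 for Col4a3, 1.20 for Nrp2, 1.19 for Plce1, 1.07 for Tspan5, 0.89 for Fbxl7 and 0.78 for Plcb1. Tafa2 rests on 1, 1, 77 and 19 UMIs in aerocyte nuclei of WT mice 1 and 2 and Tg mice 1 and 2, so that its size is uncertain. Rcan2 had 23.7, 77.4, 226 and 66.3 CPM in aerocyte nuclei in the same order, and Tg mouse 2 lay below WT mouse 2. Nrg1 had 31.6, 66.3, 39.5 and 124 CPM, and Tg mouse 1 lay below WT mouse 2. None of the 13 was called after free RNA had been subtracted, by DESeq2, with the doublet score or with the 5 other-lineage lists. The difference turned sign for Nrg1 in both latter settings and for Tmem108 with the 5 lists. The difference was higher after subtraction than before it for all 13, for example 1.19 for Plcb1, 2.89 for Col4a3 and 3.12 for Nrp2.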

How the results depend on the processing

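The calls between genotypes and those of their difference between classes depended on the processing, and the cause was not tested. Against 431 genes, 170 were called with DESeq2 (801 genes had no adjusted p), 767 with no filter on low counts (18904 genes tested), 392 with the doublet score, 194 with the stricter aerocyte rule, 218 with at least 3000 UMIs, 213 after nuclei with other-lineage markers of 5 lists had been left out (a setting chosen after seeing the data) and 2 after subtraction of free RNA. The latter settings leave fewer nuclei or genes. With 1 mouse left out, 0 (without Tg mouse 2) to 971 genes were called (without WT mouse 2), with 113 without Tg mouse 1. Of the 971, 67.6% were higher in Tg mice, against 84.9% of the 431. With the replicate number as a block, 782 genes were called. The deviations of same-numbered mice had a correlation of 0.039 over genes. With 2 mice per genotype, the deviations within a genotype are equal and opposite, so this value cannot decide whether same-numbered mice share a batch. The droplets without a nucleus held 2632203 and 4160665 UMIs in WT mice 1 and 2 and 2636412 and 4327199 in Tg mice 1 and 2. These totals were close by number. The CPM of the secreted-protein genes in these droplets, at 21715, 23757, 132885 and 51021, was not. Marker lists in the droplets went both ways. Macrophage markers, at 2602, 5852, 2546 and 4976 CPM, were nearer by number, and mesothelial markers, at 250, 475, 781 and 900 CPM, by genotype. A shared batch was not tested. The 37 single genes given kept their direction and call under the block. The planned filter on 8 lineage lists left 9, 0, 28 and 1 aerocyte nuclei and was not run.

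For the difference of genotype changes, 13 genes stood against 24 with no filter, 5 with the stricter rule (Plcb1, Vegfc, Fbxl7, Cemip2 and Mamdc2), 1 after subtraction (Sftpc, an abundant gene of free RNA), and 0 with DESeq2 (97 at an unadjusted p under 0.05), with the doublet score (390) or with the 5 lists (359). With 1 mouse left out, 4 (without Tg mouse 1) to 52 (without WT mouse 2) were called. The 14 called without WT mouse 1 and the 13 shared 0 genes, and the 8 called without Tg mouse 2 shared 4. Genes 2-fold higher and lower in aerocyte nuclei numbered 100 and 51 after subtraction, against 58 and 23. The difference of the shares stayed positive in every setting. Against 2.77 points it was 1.24 with the stricter rule, 1.28 with at least 3000 UMIs, 1.40 with nuclei thinned, and 2.12 to 3.43 with 1 mouse left out.

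Some log2 genotype changes turned sign, among them the called change of Sulf1 and the called differences of Nrg1 and Tmem108. With the doublet score they were 0.11 for Aff3, 0.22 for Dpysl5, 0.73 for Tbx3os1, 0.40 for D630045J12Rik and 0.19 for Car4. With the 5 lists they were −0.15 for Sulf1, 0.17 for Aff3, 0.31 for Tbx3os1 and 0.36 for Car4. Lmntd1 had −0.011 after subtraction, −0.38 with at least 3000 UMIs, −0.00088 and −0.00078 without WT mice 1 and 2 and −0.013 without Tg mouse 1, against 0.13 without Tg mouse 2. Kdr had −0.0011 with DESeq2, −0.051 after subtraction, −0.0090 with at least 3000 UMIs, −0.17 without WT mouse 1 and −0.013 without Tg mouse 2, against 0.14 without WT mouse 2. Without Tg mouse 2, Tbx3os1 had 0.0063 and Car4 0.031, and Car4 had −0.27 without WT mouse 1. Terf2 had 0.067 with the stricter rule. The difference of changes was −0.75 with the doublet score and −0.29 with the 5 lists for Nrg1, and −1.06 with the 5 lists for Tmem108.

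With 47 to 222 nuclei per mouse, a gene at 10 CPM has only a few UMIs in WT mouse 2.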
